A study of Mus musculus with 7 samples.

Results

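The RNA carried by Purkinje cell ribosomes in wild-type mice was described from the 3 wild-type libraries of a series of 7, and genotypes were not compared. Genes were taken as the wild-type baseline when their counts per 1000000 library counts (CPM) were 1 or more in each of the 3 libraries, which left 11944 of 55401 annotated genes. The 3 mice were female and 3 weeks old by the labels, carried the floxed ribosomal protein allele as *Rpl22* fl/+ together with the PCP2-Cre transgene (RiboTag strain B6N.129-Rpl22tm1.1Psam/J, Cre strain B6.129-Tg(Pcp2-cre)2Mpin/J), and had no *nm3888* mutation. The other 4 libraries came from mice homozygous for *nm3888* on the same *Rpl22* fl/+ and PCP2-Cre background and were not analysed here. In these RiboTag mice Cre recombination switches RPL22 to a form with an HA tag, so an HA antibody recovers ribosomes from the cells in which the *Pcp2* promoter drove Cre, out of a homogenate of the whole cerebellum. One *Rpl22* allele was left untagged, so only part of the ribosomes of each cell could be recovered, and no input RNA of the whole cerebellum was analysed here. Each library came from 1 mouse.

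The library names form 2 series, the first with wild types 1 and 2 and the second with wild type 3. Below, values are given in the order wild type 1, wild type 2 and wild type 3, so that the first pair belongs to the first series and the last value to the second. Levels are CPM divided by the summed exon length of the gene in kilobases (CPM/kb), which allows genes to be set side by side within a library. With 3 mice, and 1 of them alone in its series, no test was run and the spread over mice is given instead. A member of a list is said to stand above another where its lowest mouse exceeded the highest mouse of the other. The rule leaves out the order of the genes within each mouse.

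Purkinje cells are the sole output neurons of the cerebellar cortex and inhibit their targets with GABA. They receive glutamate from parallel fibers of granule cells and from climbing fibers, fire spontaneously at high rates, and handle large calcium loads in their dendrites. Synaptic plasticity at the parallel fiber input depends on metabotropic glutamate receptors and on calcium release through the inositol trisphosphate receptor. The genes below are ordered by these roles.

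Activity of the *Pcp2* promoter in the transgene sets which ribosomes were recovered. The endogenous promoter holds a copy of AGGTCA, letters found within the sites of RORA, a nuclear receptor of Purkinje cells, and of related receptors. Whether RORA acts on this promoter was not tested. RefSeq promoter windows (GRCm38.p6) were at hand for 8 of the 18 Purkinje markers, namely *Dner*, *Homer3*, *Lhx1*, *Pcp2*, *Pcp4*, *Rgs8*, *Rora* and *Slc1a6*. In the 250 bases before the most upstream start, 4 of the 8 held AGGTCA or its reverse complement TGACCT, beside 13.8% of 27025 promoters of the same length and 9.82% of 9166 baseline genes. Of 11 granule cell marker promoters, 3 held it. The 4 Purkinje marker promoters with a match include *Pcp2*, through which these letters were introduced, so their share depends partly on that choice. A match of 6 letters is a description of the sequence and not a binding site. The 4 stretches of 30 bases with a match are shown because they surround these letters in markers named below, each read 5′ to 3′ on the strand of the gene, with the matching letters in capitals.
Pcp2, chr8:3625548-3625577, minus strand: cttttaaaaggccttctcAGGTCAgagacc
Dner, chr1:84696315-84696344, minus strand: cttggatgtgcaAGGTCAggtccttgagaa
Homer3, chr8:70282830-70282859, plus strand: agttcctcctctTGACCTcctggtgccctc
Pcp4, chr16:96467430-96467459, plus strand: tccttgctattgTGACCTgatcagccatga
The match in *Pcp2* began 12 bases before the transcription start, against 111 in *Dner*, 157 in *Homer3* and 164 in *Pcp4*. *Rora* itself was in the baseline at 106, 95.7 and 69.6 CPM/kb.

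The libraries held 25843485, 26281876 and 107937386 counts, so that a CPM of 1 stood for 26, 27 and 108 counts. The exact 95% Poisson interval at that level ran from 0.657 to 1.47 CPM in the shallowest library and from 0.821 to 1.21 CPM in the deepest, and covers counting error only. Wild types 1 and 2 were distinct libraries, since their counts differed by a chi-square of 15.4 per gene and degree of freedom. Of the baseline genes 11290 (94.5%) were annotated as protein-coding, 146 as lincRNA, 132 as antisense RNA and 161 as pseudogenes. The median baseline gene stood at 4.39, 4.25 and 4.88 CPM/kb, and the highest hundredth of genes lay above 314, 329 and 264 CPM/kb. The rank order of baseline genes was closer within the first series (Spearman's rho 0.993) than between the series (0.938 and 0.939), as a description across 11944 genes that are not independent and share a library.

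Between the series, 10.5% of baseline genes differed more than 2-fold in CPM (wild type 3 against the mean of wild types 1 and 2), whereas 0.653% did so between wild types 1 and 2. The difference ran unevenly over kinds of gene. Of the 161 baseline pseudogenes 106 were lower and 4 higher in the second series by that margin, and processed pseudogenes took 8.19, 8.88 and 0.118% of all counts. Genes of the ribosome itself went the other way. Of 71 ribosomal protein genes in the baseline, a set taken by symbol after values had been seen, 63 were more than 2-fold higher in the second series and 0 lower, and their summed level was 1198, 1208 and 6354 CPM. The glycolytic gene *Gapdh* stood at 252, 262 and 2935 CPM. The median log2 difference over protein-coding genes rose from −0.09 for genes of 1 exon to 0.24 for genes of 21 or more exons. Per the file headers the first series was counted from alignments in a Bowtie2 folder and the second from a STAR folder, and whether the aligner set these differences was not tested. Mitochondrial genes took 0.132, 0.0922 and 0% of counts. The series also differed in mouse and in depth, which cannot be told apart from the aligner here. The 18 Purkinje markers were all within 2-fold between the series, and 7 of 240 baseline channel, receptor and transporter genes (2.92%) were not, beside 10.5% of all baseline genes.

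**Figure D1:**
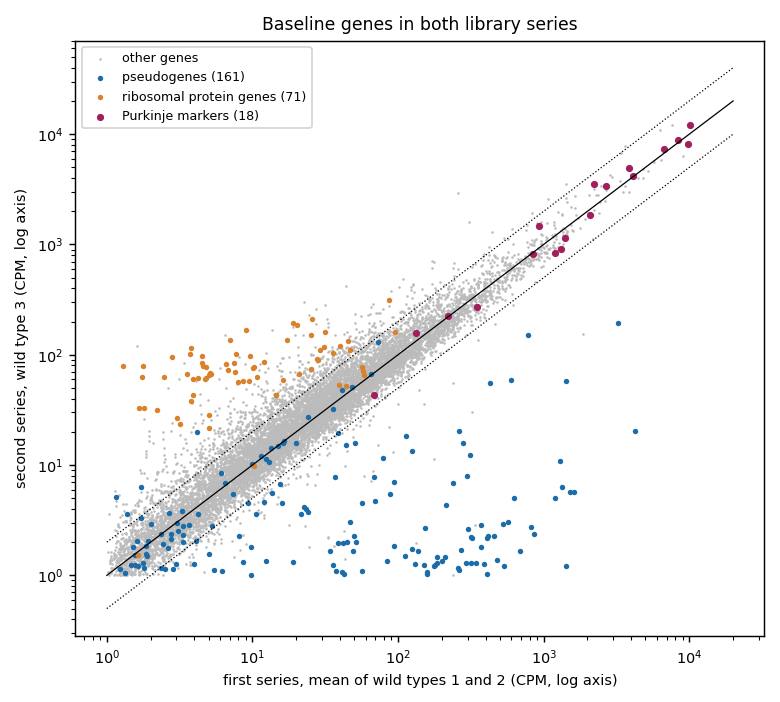
Each point is 1 of 11944 baseline genes, with the mean CPM of wild types 1 and 2 on the x axis and the CPM of wild type 3 on the y axis, both on log axes, the solid line at equality and the dotted lines at 2-fold. Pseudogenes (161) reach far below the lower line and 63 of the 71 ribosomal protein genes lie above the upper one, while the 18 Purkinje markers lie between the lines.

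The 10 genes with the most counts took 7.61, 7.46 and 8.63% of all counts, and 8 genes were among these 10 in every library, among them *Itpr1*, *Rgs8*, *Car8*, *Ywhah*, *Aldoc* and *Calb1*. *Itpr1*, the inositol trisphosphate receptor that releases calcium from the endoplasmic reticulum, took 1.10, 0.922 and 1.22% of the counts. *Rgs8*, a regulator of G protein signaling, took 0.930, 1.03 and 0.813%. The last 2 places were held by *Nsg1* and *Sbk1* in both libraries of the first series, and by *Ckb* and an rRNA annotation (CT010467.1) in the second.

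Per kilobase the order changed, because *Itpr1* and *Rgs8* are long. Of the 25 highest protein-coding genes of each series, 20 were shared. *Aldoc*, the brain form of aldolase and the antigen known as zebrin II, stood at 2314, 2329 and 3740.3 CPM/kb, and its value in the second series lay above both of the first. *Pvalb*, the calcium buffer parvalbumin, stood at 2088, 2144 and 3047. *Car8*, a carbonic anhydrase-related protein that binds the inositol trisphosphate receptor, stood at 2314, 2048 and 2284, nearly level over the 3 mice. *Ywhah*, a 14-3-3 protein, was the highest protein-coding gene of the first series and in place 10 of the second, at 2376, 2502 and 1713 CPM/kb. *Ckb*, the brain creatine kinase, stood at 1268, 1249.7 and 2706 and was over 2-fold higher in the second series, as was *Gng13*, a G protein gamma subunit, at 704, 854 and 1789.8.

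Several other genes among the 25 highest had steady levels. *Nsg1*, a neuronal endosomal protein, stood at 1806, 1777 and 1731 CPM/kb. *Hpcal1*, a neuronal calcium sensor, stood at 1211, 1424 and 1203. *Sbk1*, a kinase gene with an SH3-binding domain, stood at 1126, 1213 and 1039.8. These genes differed little between mice, and the same held for *Itm2b*, an integral membrane protein, at 1018, 932 and 1133. *Thy1*, a surface glycoprotein of neurons, stood at 829.7, 921 and 834 and *Icmt*, a methyltransferase of prenylated proteins, at 903, 924 and 761. *Ubb*, which encodes polyubiquitin, stood at 1276, 1338 and 675 and was lower in the second series. Higher in the second series were *Selenow*, a selenoprotein, at 512, 629 and 1296, *Stmn3*, a stathmin that acts on microtubules, at 689, 647 and 1201, and *Eef1a2*, the elongation factor form of neurons and muscle, at 637, 636 and 905.

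**Figure D2:**
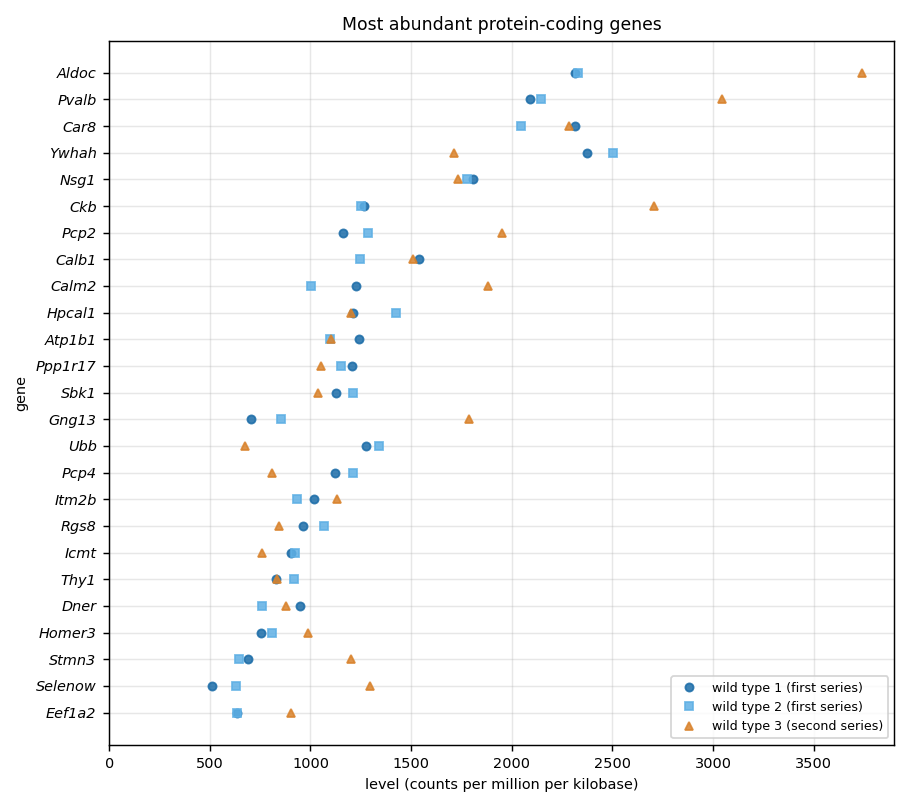
Levels in CPM per kilobase (x axis) of the protein-coding genes that are among the 25 highest of at least 1 library series, leaving out the predicted gene *Gm11273* and some other genes, with 1 symbol for each wild-type mouse. *Aldoc*, *Pvalb*, *Car8* and *Ywhah* lead, and *Aldoc*, *Ckb* and *Gng13* lie farther right in wild type 3 than in wild types 1 and 2.

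The 25 highest genes of any type showed the series difference again. In the first series 11 of 25 were protein-coding and 11 were processed or transcribed processed pseudogenes, whereas in the second series 23 of 25 were protein-coding and none was a pseudogene. *Gm12892*, a processed pseudogene, stood at 3674, 3773 and 17.7 CPM/kb and *Gm7308*, another, at 2910.1, 3459.7 and 2.69. The others of this kind were *Gm15459*, *Gm10123*, *Gm5514*, *Gm6180*, *Gm12338*, *Gm1821*, *Atp6v0c-ps2*, *Gm12715* and *Gm12428*, of which the highest in the second series was *Atp6v0c-ps2* at 1243, 1314 and 128. A pseudogene shares sequence with its parent gene, so levels of either are uncertain in the first series. The predicted single-exon gene *Gm11273*, annotated as protein-coding, stood at 786, 933 and 7.41 CPM/kb. In both series the first place went to *Gm23935*, an annotation of 57 bases typed as a miRNA, at 9748, 12249.8 and 10335 CPM/kb, where a short length raises a level per kilobase. *Gm24270*, of the same type and length, stood at 1125, 1234 and 155, and the rRNA annotation CT010467.1 at 1889.7, 1784 and 3650.0.

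Markers of Purkinje cells stood near the top of the baseline in every library. All 18 were in the baseline, and their median percentile among baseline genes was 99.5, 99.5 and 99.7. *Pcp2*, a G protein modulator and the gene whose promoter drives Cre (chromosome 8, 3623371 to 3625545, mm10), had 54781, 61722 and 384630 counts and 1159.6, 1285 and 1949 CPM/kb, a mean of 1465 ± 425 (SD, n = 3). *Calb1*, the calcium buffer calbindin (chromosome 4, 15881264 to 15908064), had 1542, 1246 and 1509 CPM/kb, a mean of 1432 ± 162 (SD, n = 3). *Car8* (chromosome 4, 8143362 to 8239041) had a mean of 2215 ± 146 CPM/kb (SD, n = 3), and *Itpr1* (chromosome 6, 108213096 to 108551109) had 598, 503 and 664, a mean of 588 ± 80.7 (SD, n = 3). These means pool both series, so each SD holds the series difference as well as the spread between mice. The lowest percentile of these 4 genes was 99.4, that of *Itpr1* in wild type 2, so none of these 4 was absent or low.

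The other markers spread over a wide range. *Ppp1r17*, a phosphatase inhibitor, stood at 1208, 1150.2 and 1051 CPM/kb, and *Pcp4*, a calmodulin-binding peptide, at 1119.8, 1209 and 809. *Dner*, a ligand of Notch on Bergmann glia, stood at 946, 759 and 878, and *Homer3*, a scaffold of the postsynaptic density, at 754, 809 and 988. From *Ppp1r17* through *Pcp4*, *Rgs8* and *Dner* down to *Homer3*, each marker overlapped its neighbor in the order, so that neighbors were not told apart over the 3 mice.

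Transcription factors lay in the lower part of the marker list. *Lhx5*, a LIM homeodomain factor, stood at 83.8, 81.3 and 84.1 CPM/kb and *Lhx1*, its paralog, at 82.1, 89.1 and 66.4. *Skor2*, a corepressor needed for Purkinje differentiation, stood at 42.02, 43.03 and 50.4. The lowest marker was *Foxp2*, a forkhead factor, at 4.77, 3.55 and 2.65 CPM/kb, or percentile 52.1, 45.3 and 34.9 among baseline genes. The next lowest marker, *Skor2*, stood at percentile 92.0, 92.3 and 92.7. Without length scaling *Foxp2* was still lowest, at 78.0, 58.0 and 43.3 CPM, beside 132, 135 and 158 for *Skor2*, a narrower gap.

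Markers of other cerebellar cells were far lower but not absent. In bulk RNA of this kind fewer cells of a type and less RNA per cell cannot be told apart, and how RNA of other cell types entered the pull-down was not tested. The granule cell list, whose cells vastly outnumber Purkinje cells in the tissue, had 14 of 14 members in the baseline at a summed level of 659, 526 and 610 CPM, against 58157, 54691 and 60277 CPM for the 18 Purkinje markers. The median Purkinje marker stood 71.7-, 82.5- and 85.2-fold above the median granule cell marker per kilobase. *Cbln1*, the synaptic organizer that granule cells secrete, stood at 24.5, 19.3 and 22.4 CPM/kb, *Cbln3* at 19.4, 15.2 and 16.2 and *Grin2c*, an NMDA receptor subunit, at 12.2, 8.93 and 12.9. *Gabra6*, the GABA-A receptor subunit of granule cells, stood at 12.98, 7.32 and 8.75, so that *Pcp2* exceeded it 89.3-, 175- and 223-fold.

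Both glial lists had a lower median level per kilobase than the granule cell list in every mouse. Of the Bergmann glia and astrocyte list 13 of 13 were in the baseline, at a median percentile of 32.3, 24.3 and 34.3 and a summed level of 465, 523 and 484 CPM. *Hopx*, a homeodomain-only protein, was by far its highest member at 102, 145 and 153 CPM/kb, followed by *Gdf10* at 20.8, 25.7 and 15.3, a growth factor of Bergmann glia, and *S100b*, a calcium-binding protein of glia, at 11.9, 9.61 and 13.04. The astrocyte filament gene *Gfap* stood at 1.77, 1.36 and 2.603 and the glial glutamate transporter *Slc1a3* at 7.801, 7.14 and 5.95. *Hopx* thus departed from the rest of its list, and its cell of origin was not tested. Of the oligodendrocyte list 14 of 16 were in the baseline at 763, 525 and 624 CPM in all, with the myelin gene *Mbp* at 29.8, 19.8 and 25.8 CPM/kb and the lineage factor *Olig1* at 13.01, 14.7 and 14.03 among its highest.

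Low levels were found for the lists of microglia, interneurons, vessels and unipolar brush cells. Of 11 microglial markers 1 was in the baseline, the receptor *Csf1r* at 0.221, 0.178 and 0.398 CPM/kb, and the highest, the complement components *C1qa*, *C1qb* and *C1qc*, stood at 0.893, 0.476 and 0.855, at 0.711, 0.4197 and 0.494 and at 0.261, 0.197 and 0.441. Of the interneuron list 8 of 9 were in the baseline at a summed level of 42.5, 43.5 and 44.4 CPM, with *Lgi2*, a secreted neuronal protein, highest at 1.81, 2.51 and 2.28 CPM/kb, the receptor *Kit* next at 1.41, 1.29 and 1.54, and *Lypd6* at 0.882, 0.673 and 0.646. Of the endothelial and pericyte list 11 of 13 were in the baseline at 58.2, 45.4 and 35.1 CPM, with *Cldn5*, a tight junction protein, at 3.69, 2.58 and 2.25 CPM/kb, *Rgs5*, a pericyte gene, at 3.87, 3.16 and 1.43, and *Vtn*, the vitronectin gene, at 1.85, 1.42 and 2.55. *Eomes*, a unipolar brush cell factor, stood at 0.522, 0.668 and 0.361 CPM/kb, and *Lmx1a*, the other marker of these cells, was outside the baseline at 0.0342, 0.123 and 0.0464. None of the lists had a member without a count in all 3 libraries.

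Blood and choroid plexus genes showed high single values. The 5 blood genes were all in the baseline, at a median percentile of 88.1, 86.3 and 57.7, the highest of the other cell types in the first series. *Hbb-bs*, a beta globin, stood at 48.4, 37.1 and 51.7 CPM/kb and *Hba-a1*, an alpha globin, at 47.5, 41.5 and 39.6, while *Hba-a2*, a near-identical copy of *Hba-a1*, stood at 28.4, 24.9 and 4.25. Counts of such copies are uncertain, since a read can belong to either. *Ttr*, the transthyretin gene of the choroid plexus, stood at 26.8, 34.5 and 53.3 CPM/kb and *Clic6*, a chloride intracellular channel gene, at 13.9, 15.2 and 11.9, whereas the other 3 choroid plexus markers were outside the baseline, the highest being the homeobox gene *Otx2* at 0.468, 0.216 and 0.388.

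**Figure D3:**
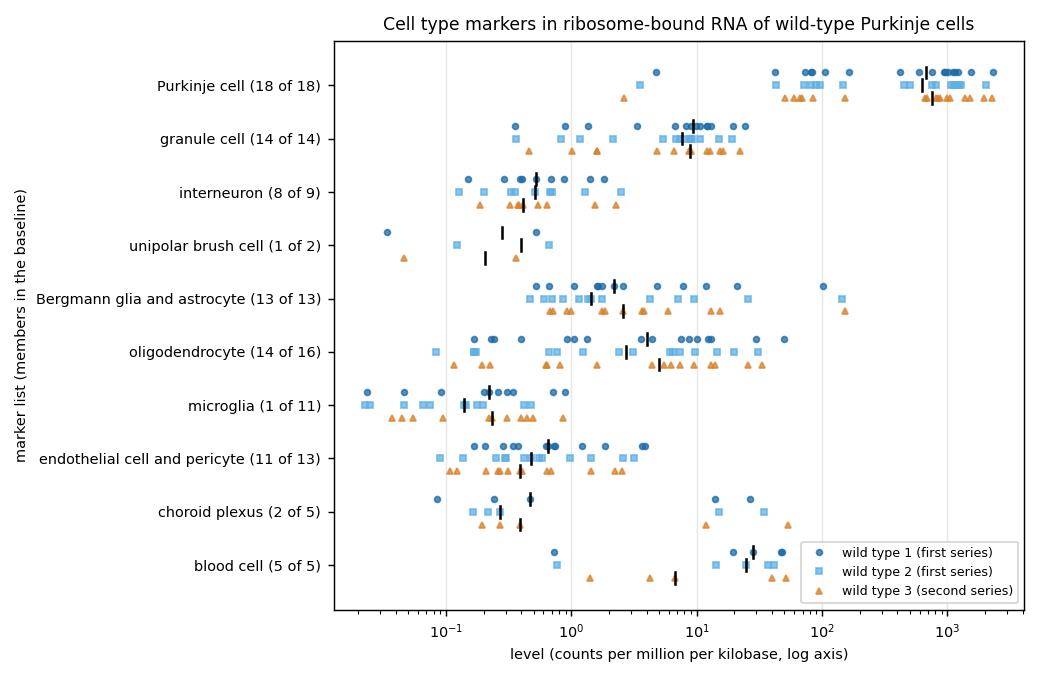
Level of each marker gene in CPM per kilobase (x axis, log scale) by cell type list (y axis, with the number of members in the baseline), with 1 symbol for each gene and mouse, black bars at the list medians, and values of 0 left out. The median of the Purkinje list lies to the right of all others in each mouse, *Foxp2* is its lowest member, and *Hopx* is the single gene of the Bergmann glia and astrocyte list above 100.

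Channel, receptor and transporter genes were read from 40 lists with 429 members, of which 240 were in the baseline. Of these 429 genes 167 reached 10 CPM in all 3 mice and 69 reached 100 CPM, while 19 had no count in any library, which allows up to 0.116, 0.114 and 0.0278 CPM. In 37 of the 40 lists the same member led in every mouse, in 36 the leader stood above the next member without overlap, and in 25 it was more than 2-fold above it in every mouse. The leader changed with the mouse for the calcium- and sodium-activated potassium channels, the sodium-potassium ATPase and the sodium-hydrogen exchangers.

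Among sodium channel genes, *Scn8a*, the Nav1.6 subunit known for resurgent current in Purkinje cells, stood at 31.4, 33.9 and 28.1 CPM/kb. *Scn1a*, the Nav1.1 subunit, stood at 16.6, 16.6 and 11.8, so that *Scn8a* was 1.89-, 2.05- and 2.38-fold higher. The sodium leak channel *Nalcn* at 3.61, 2.59 and 3.54 and *Scn2a* at 2.97, 2.37 and 2.22 followed, and the other 7 of 11 alpha subunit genes were outside the baseline. Auxiliary subunit genes *Scn2b* and *Scn4b* stood above every pore gene per kilobase. *Scn2b* stood at 168, 164 and 141 CPM/kb and *Scn4b* at 107, 118 and 97.6, the last being the subunit linked to resurgent current. *Scn3b* was low, at 0.255, 0.195 and 0.271.

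Calcium channels followed the same pattern of few leading members. *Cacna1g*, the T-type channel Cav3.1, stood at 218, 233 and 276 CPM/kb, above *Cacna1a*, the P-type channel Cav2.1 that carries most calcium current of Purkinje cells, at 40.2, 43.4 and 61.8. The ratio of the T-type to the P-type gene was 5.42, 5.37 and 4.47. *Cacna1e*, the R-type channel, came next at 1.96, 1.61 and 1.53, and *Cacna1b*, the N-type channel, at 1.32, 0.857 and 1.25. *Cacnb4* led the beta subunits at 49.8, 39.7 and 28.3, above *Cacnb2* at 14.7, 13.6 and 12.9, and *Cacnb3* at 2.76, 2.36 and 3.83 overlapped *Cacnb1* at 2.69, 2.32 and 3.44. *Cacna2d2*, the alpha2delta subunit mutated in ducky mice, led its list at 86.5, 124 and 124. *Cacna2d1*, by contrast, stood at 0.555, 0.334 and 0.322, and *Cacna2d3* at 0.351, 0.349 and 1.197 was 1 of the 7 family genes over 2-fold apart between the series. *Cacna2d4* was outside the baseline at 0.0817, 0.0682 and 0.0929.

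Among voltage-gated potassium channel genes, 19 of 30 were in the baseline. *Kcna6*, a member of the Kv1 group, stood at 106, 113 and 92.1 CPM/kb. *Kcna2* stood at 44.01, 49.2 and 33.8 and *Kcnc1*, which encodes Kv3.1, at 23.9, 20.9 and 21.4. The range of *Kcnc1* overlapped that of *Kcna1* at 19.4, 23.1 and 11.9, which in turn overlapped that of *Kcnd3* at 19.8, 17.7 and 11.3. The silent subunit *Kcng4*, which forms channels only with other subunits, stood high at 369.7, 392 and 321. Auxiliary subunits followed with *Kcnip4* at 81.03, 74.7 and 65.8, *Kcnab2* at 61.7, 75.4 and 69.9 and *Kcnip1* at 59.6, 64.3 and 69.7, again with overlapping ranges.

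The large-conductance calcium-activated channel *Kcnma1* stood at 64.7, 62.9 and 44.5 CPM/kb and its auxiliary *Kcnmb4* at 39.3, 36.8 and 50.1, with overlapping ranges. The sodium-activated channel *Kcnt1* stood at 4.35, 3.06 and 4.76. Of the small-conductance channels *Kcnn2* stood at 2.78, 2.99 and 2.78 and *Kcnn1* at 1.17, 1.14 and 1.52. Inward rectifiers were led by *Kcnj9*, a G protein-gated subunit, at 32.2, 29.1 and 28.7, then *Kcnj11*, the pore of the ATP-sensitive channel, at 17.2, 15.4 and 15.2, and *Kcnj3* at 14.1, 10.2 and 7.95. The glial rectifier *Kcnj10* stood at 4.33, 3.71 and 3.92. Leak channels were led by *Kcnk1* at 55.7, 56.1 and 43.98, with *Kcnk3* next at 4.92, 4.13 and 4.36, *Kcnk9* at 1.99, 1.21 and 1.25 and *Kcnk12* at 1.33, 0.965 and 1.301. Of the hyperpolarization-activated channels, *Hcn2* at 50.98, 53.5 and 59.9 stood above *Hcn4* at 2.75, 2.21 and 2.67 and *Hcn3* at 0.978, 0.907 and 1.04.

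Calcium entry and release channels were led by *Itpr1*. Among TRP channels *Trpc1* stood at 6.11, 5.91 and 5.93 CPM/kb and overlapped *Trpm2* at 3.36, 3.26 and 5.96, ahead of *Trpm7* at 2.01, 1.52 and 1.47. The store-operated genes *Orai2* at 45.9, 48.8 and 41.5 and *Orai3* at 44.6, 43.6 and 41.1 overlapped in range. Within each mouse *Orai2* was 1.03-, 1.12- and 1.01-fold higher. Their sensor *Stim1* stood at 32.02, 38.96 and 31.8. The ryanodine receptors *Ryr1* at 1.398, 1.27 and 3.27 and *Ryr2* at 1.44, 1.24 and 1.61 were low, and *Itpr1* exceeded *Ryr1* 428-, 396- and 203-fold. Among chloride channel genes *Ttyh1* led at 42.8, 42.3 and 56.9, followed by *Clcn4* at 22.4, 22.9 and 21.4 and *Clcn6* at 18.3, 20.97 and 18.8, both endosomal exchangers, and by *Ano8* at 13.9, 15.8 and 20.9.

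**Figure D4:**
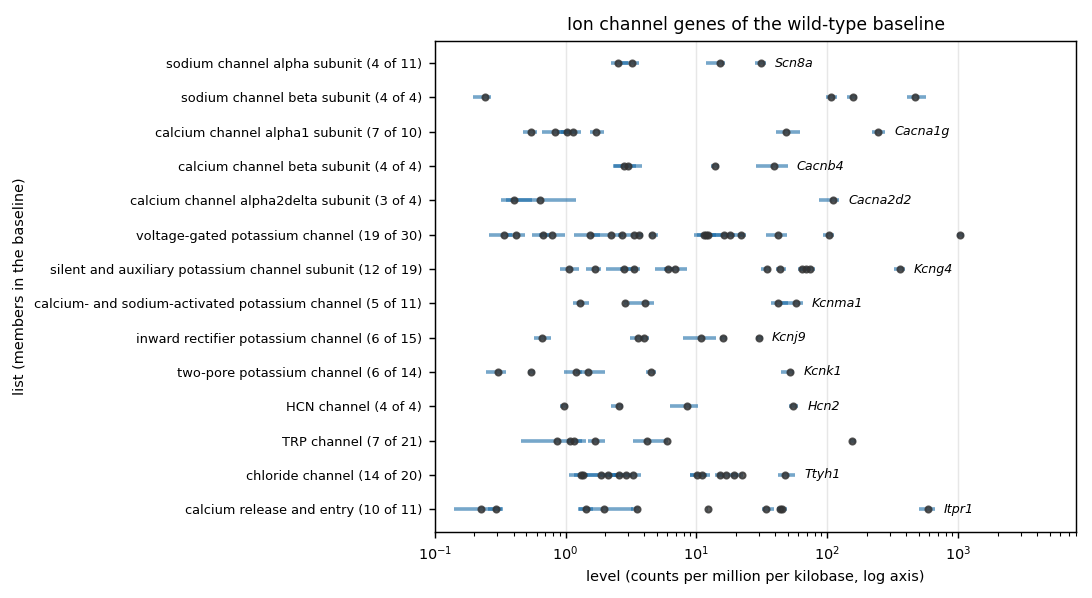
Levels of baseline members of the 14 ion channel lists in CPM per kilobase (x axis, log scale), where each point is the mean of 3 mice, each bar runs from the lowest to the highest mouse, and the leading gene is named in most lists. *Itpr1*, *Kcng4* and *Cacna1g* are each clear of the next member of their list.

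Ionotropic glutamate receptors were led by AMPA receptor genes and their auxiliary subunits. *Gria1* stood at 97.2, 109 and 95.8 CPM/kb, above *Gria2* at 28.9, 42.4 and 31.2 and *Gria3* at 33.4, 30.3 and 25.2, whose ranges overlapped, and above *Gria4* at 16.3, 14.2 and 12.01. Without length scaling the ranges of *Gria1* and *Gria2* overlapped, at 588, 659 and 579 CPM against 449, 659 and 486. Of the trafficking subunits, *Cacng7* at 219.5, 244 and 236 and *Cacng2*, known as stargazin, at 160.1, 179 and 131 stood above *Gria1*. *Shisa6* at 141, 140.4 and 104 and *Cnih2* at 56.9, 56.9 and 96.95 overlapped it. *Grid1*, a delta receptor gene, stood at 0.766, 0.702 and 0.662. Kainate receptor genes were led by *Grik1* at 23.3, 24.4 and 28.6 and *Grik4* at 16.1, 16.3 and 23.7, whose ranges touched, followed by *Neto2*, an auxiliary subunit, at 7.99, 8.36 and 4.65, and *Grik5* at 3.02, 2.47 and 4.09.

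The NMDA receptor showed an uneven set of subunits. *Grin1*, the subunit that every NMDA receptor needs, stood at 48.7, 49.8 and 66.6 CPM/kb. *Grin2a* stood at 0.5696, 0.424 and 0.428 and *Grin2b* at 0.173, 0.149 and 0.132, so that *Grin1* exceeded *Grin2a* 85.5-, 117- and 155-fold. *Grin2c* at 12.2, 8.93 and 12.9 was the highest of its partners, and it is also on the granule cell list, where it was the third highest member. *Grin2d* stood at 0.564, 0.4 and 0.605.

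Of 8 metabotropic glutamate receptor genes 5 were in the baseline. *Grm4* at 15.8, 12.4 and 21.01 CPM/kb and *Grm7* at 14.1, 15.5 and 11.5 overlapped each other, *Grm3* stood at 0.723, 0.611 and 0.699, and *Grm5* was outside the baseline at 0.2001, 0.115 and 0.0769. The signaling cascade of the group I receptors was present at every step. Its G protein genes were *Gnaq* at 138, 137 and 104 and *Gna11* at 24.1, 24.7 and 26.6, and its phospholipases were *Plcb4* at 68.3, 66.4 and 68.04 and *Plcb3* at 26.1, 26.04 and 56.05. *Plcb3*, a zebrin-positive gene, was higher in the second series. Of 16 genes of this cascade 15 were in the baseline, at a median percentile of 91.2, 91.0 and 94.1. *Homer3* exceeded *Homer1* 340-, 381- and 589-fold, and the kinase gene *Prkca* stood at 16.6, 17.4 and 12.7.

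Of 19 GABA-A receptor subunit genes 9 were in the baseline. *Gabrb2*, a subunit of the common synaptic receptor, stood at 18.9, 17.5 and 12.6 CPM/kb and overlapped *Gabra6* at 12.98, 7.32 and 8.75, which belongs to the granule cell list as well. *Gabra2* stood at 10.6, 7.49 and 4.46 and was over 2-fold lower in the second series. Both GABA-B receptor genes were abundant, *Gabbr1* at 382, 381 and 526 and *Gabbr2* at 219, 243 and 226. *Kctd12*, an auxiliary subunit, stood at 161, 157 and 103. *Kctd8* stood at 0.895, 0.778 and 0.758 and *Kctd16* was outside the baseline.

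Receptors for other transmitters were mostly outside the baseline. Of 18 acetylcholine receptor genes only *Chrnb2*, a nicotinic beta subunit, was in it, at 29.4, 32.2 and 25.5 CPM/kb, with no alpha subunit beside it. The next 3 were the nicotinic *Chrna4* at 0.308, 0.136 and 0.266, the muscarinic *Chrm4* at 0.269, 0.264 and 0.161 and the nicotinic *Chrna5* at 0.173, 0.219 and 0.119. The glycine receptor beta subunit *Glrb*, at 57.7, 70.2 and 69.8, likewise had no alpha subunit in the baseline, where *Glra1* stood at 0.144, 0.0473 and 0.288, *Glra2* at 0.135, 0.109 and 0.118 and *Glra3* at 0.139, 0.0992 and 0.0664. Serotonin receptors were led by *Htr1b* at 35.9, 35.8 and 21.1, then *Htr5a* at 3.53, 4.204 and 2.595, with *Htr2a* at 0.248, 0.394 and 0.127 and *Htr2c* at 0.2904, 0.147 and 0.238 far below. The histamine receptor *Hrh3* stood at 42.8, 40.4 and 42.01 and *Hrh2* at 2.13, 6.42 and 1.65, where wild type 2 lay 3.02-fold above wild type 1. The adrenergic receptors *Adra2b* at 3.52, 4.104 and 3.87 and *Adra2c* at 2.26, 2.24 and 2.34 were the only members of 9 in the baseline, followed by *Adra2a* at 0.3203, 0.181 and 0.286 and *Adra1d* at 0.163, 0.2204 and 0.195. No dopamine receptor was in the baseline, where *Drd2* stood at 0.273, 0.179 and 0.313, and the histamine receptor *Hrh1* stood at 0.08695, 0.0855 and 0.0937. *P2rx4*, a purine-gated channel, stood at 7.05, 7.83 and 11.2, *Adora1*, an adenosine receptor, at 6.62, 5.13 and 6.08, and the cannabinoid receptor *Cnr1* at 4.94, 3.702 and 3.04, while *P2rx3* was outside the baseline at 0.194, 0.123 and 0.531.

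Transporters of transmitters were led by those for GABA and glutamate. *Slc32a1*, the vesicular GABA transporter, stood at 258, 261 and 219.9 CPM/kb and exceeded *Slc17a7*, the vesicular glutamate transporter of granule cells at 10.5, 9.07 and 12.1, 24.5-, 28.7- and 18.2-fold. *Slc17a6*, another vesicular glutamate transporter, at 0.538, 0.169 and 0.414, and *Slc18a1*, a vesicular monoamine transporter, at 0.0716, 0.00704 and 0.0532, were outside the baseline. The synthetic enzymes were *Gad1* at 167, 143 and 207 and *Gad2* at 42.03, 48.9 and 29.8, so that *Gad1* was 3.96-, 2.92- and 6.97-fold higher, and the GABA-degrading enzymes *Abat* and *Aldh5a1* stood at 63.99, 69.1 and 59.1 and at 28.8, 26.9 and 23.2. *Slc1a6*, the glutamate transporter EAAT4 of Purkinje spines, stood at 417, 448 and 690.2 and exceeded *Slc1a3* 53.4-, 62.8- and 116-fold. The glial *Slc1a2* stood at 4.803, 4.23 and 3.68 and the neutral amino acid carrier *Slc1a4* at 1.45, 0.969 and 1.25. The glycine transporter *Slc6a9* stood at 3.99, 3.12 and 4.47, ahead of the GABA transporters *Slc6a11* at 1.59, 0.866 and 1.76 and *Slc6a13* at 0.786, 0.956 and 0.785. Chloride export was led by *Slc12a5*, known as KCC2, at 161, 147 and 163, and the chloride importer *Slc12a2*, known as NKCC1, stood at 1.54, 1.23 and 1.19. Between them lay *Slc12a8* at 11.2, 10.5 and 12.5 and *Slc12a9* at 1.58, 1.64 and 1.801.

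Pumps were among the most abundant genes of all. *Atp1b1*, a beta subunit of the sodium-potassium pump, stood at 1239, 1096 and 1101 CPM/kb, and *Atp1b2*, another, at 45.6, 49.7 and 50.4. The calcium pumps of the endoplasmic reticulum were *Atp2a2* at 804, 769 and 789 and *Atp2a3* at 441, 451 and 530.2. *Atp2b2*, the main calcium pump of the Purkinje plasma membrane, stood at 345, 365 and 316 and exceeded *Atp2b1* 79.8-, 92.4- and 73.99-fold. These 3 calcium pumps stood clear of one another and of the other 4, and sodium-calcium exchangers were much lower, with *Slc24a2* at 22.2, 20.3 and 13.5, *Slc8a2* at 5.15, 4.77 and 5.598, *Slc8a1* at 4.699, 4.52 and 3.397 and *Slc24a3* at 2.33, 1.88 and 2.62.

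Calcium buffers and sensors were high as a group, with all 14 listed genes in the baseline at a median percentile of 97.6, 97.0 and 97.8. Beside *Pvalb* and *Calb1* they include the calmodulin genes *Calm2* at 1226, 1002 and 1883 CPM/kb and *Calm3* at 481, 514 and 586. *Calb2*, the calretinin gene of granule and unipolar brush cells, stood at 8.99, 9.15 and 15.4, so that *Calb1* exceeded it 171-, 136- and 98.1-fold. *Pvalb* exceeded *Calb1* 1.35-, 1.72- and 2.02-fold.

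Transporters of nutrients, acid and bicarbonate were moderate. The neuronal glucose transporter *Slc2a3* stood at 18.7, 18.4 and 17.03 CPM/kb, above *Slc2a1*, the form of vessels and glia, at 5.25, 5.81 and 4.76, *Slc2a6* at 3.7, 3.63 and 4.76 and *Slc2a8* at 2.47, 2.64 and 3.22. The lactate and pyruvate carrier *Slc16a1* stood at 13.6, 11.6 and 10.9, while *Slc16a7* at 0.284, 0.1896 and 0.175 and *Slc16a10* at 0.116, 0.0983 and 0.141 were low. Bicarbonate transport was led by *Slc4a10* at 36.97, 30.8 and 38.6, then *Slc4a3* at 11.7, 12.2 and 20.3, *Slc4a2* at 5.73, 5.93 and 9.57 and *Slc4a4* at 3.87, 3.16 and 2.61. The sodium-hydrogen exchangers *Slc9a3* and *Slc9a8* stood at 15.6, 16.1 and 15.4 and at 6.69, 6.81 and 6.96. Amino acid carriers were led by *Slc38a1*, a glutamine transporter, at 23.2, 22.5 and 19.1, followed by *Slc7a8* at 13.6, 17.3 and 16.2, *Slc38a10* at 13.2, 13.8 and 15.8 and *Slc38a2* at 11.7, 10.5 and 9.86.

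**Figure D5:**
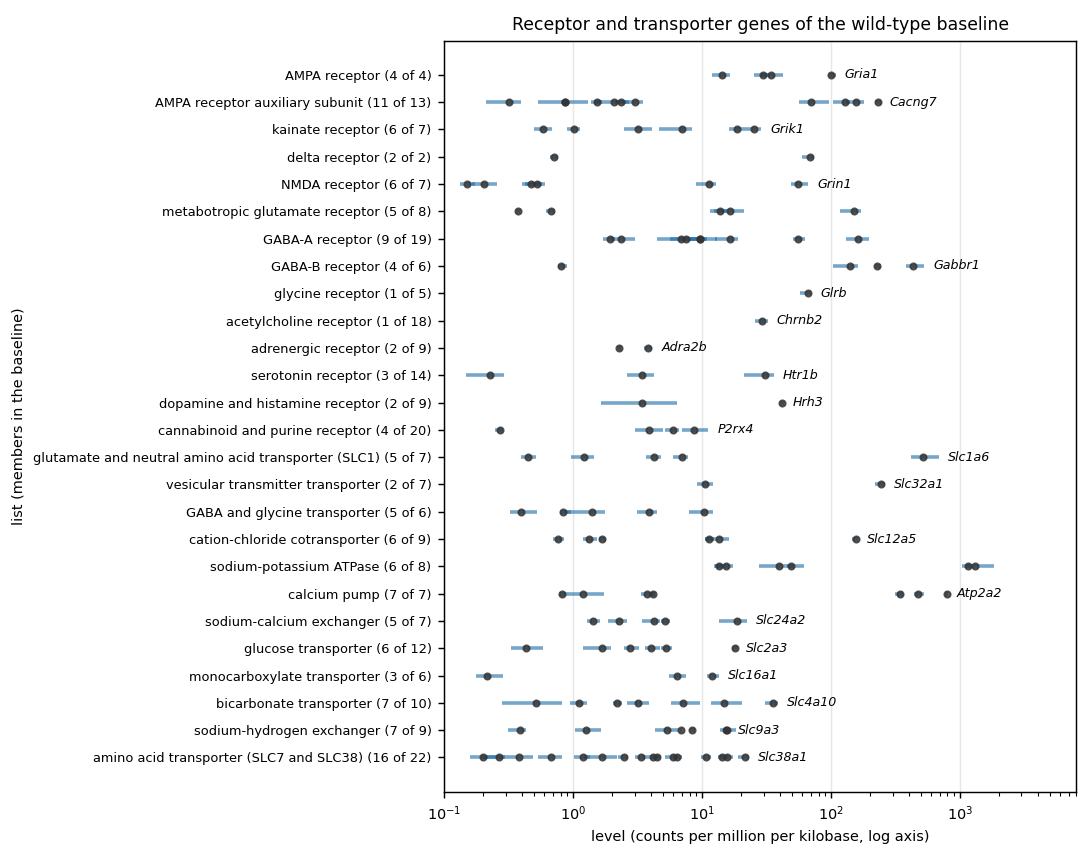
Levels of baseline members of the 14 receptor lists and 12 transporter lists in CPM per kilobase (x axis, log scale), where each point is the mean of 3 mice, each bar runs from the lowest to the highest mouse, and the leading gene is named in most lists. *Atp2a2*, *Slc1a6* and *Gabbr1* are each clear of the next member of their list, and the acetylcholine and glycine receptor lists each hold 1 baseline gene.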

How the data were processed

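RNA bound to HA-tagged ribosomes was sequenced from the cerebellum of 1 mouse per library after poly(A) selection with a stranded kit. The deposited values are raw read-pair counts per gene, which the authors made by removing duplicates and trimming adapters with fastp, aligning to mm10 and counting with featureCounts 2.0.1 on GENCODE M25 (paired, both ends mapped, reverse strand, per the file headers). The methods name Bowtie2, while the headers show a STAR folder for wild type 3. Of 55401 genes, 99.5% were matched by identifier to a symbol, and gene types and exon numbers came from GENCODE M21.

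Counts were divided by the library total to give CPM and by the summed exon length in the files to give CPM/kb. Percentiles are among the 11944 baseline genes, and a list member outside the baseline was set to 0. TMM factors (edgeR 4.0.16, R 4.3.3) served only as an alternative scaling. Python 3.11.15, pandas 2.3.3 and numpy 2.4.6 were used, and level, rank and fold steps were tested on simulated data. No test was made, since the wild-type libraries form 1 group.

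The genes and the 57 lists were chosen with earlier results of these data known. The genes named were fixed by rule: the 25 highest per kilobase in each series, the 10 with the most counts, every Purkinje marker, the 3 highest of each other cell type, the 4 highest of each channel, receptor, transporter and signaling list with any member of known role in Purkinje cells, and the 5 baseline genes most apart between the series in each direction above 10 CPM. A few others were added after their values were seen, namely *Gapdh*, genes given as the low partner or relative of a leader, and those said so beside their values. Some genes that the rule selects are not reported here. Alternatives changed the CPM minimum (0.5 or 2), the library total, the length scaling, the gene universe and the mice included.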

Additional observations from a re-analysis of the deposited data

How the results depend on the processing

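The size of the baseline ranged from 10865 to 13078 genes over the CPM minimums and library totals tried, and from 12005 to 14296 with 1 mouse left out. Baseline channel, receptor and transporter genes numbered 224 to 270, and 241 to 251 with 1 mouse left out. The leading gene was the same in 39 of 40 lists without length scaling, where *Shisa6* replaced *Cacng7*, and in 38 to 40 with 1 mouse left out, with 1 list changed without wild type 2 and 2 changed without wild type 3, the sodium-hydrogen exchangers in both and the sodium-potassium ATPase in the last. The 10 highest genes took 7.90% of counts on average, 8.49% among protein-coding genes, and 7.53 to 8.12% with 1 mouse left out.

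The top 25 of the series shared 12 genes, 20 when restricted to protein-coding genes, and 12 to 14 with a mouse of the first series left out. The mean of the median Purkinje percentiles was 99.6, and became 99.79 among all genes with a count and 99.73 among protein-coding baseline genes, with 99.49 to 99.65 when 1 mouse was left out. The highest other list was blood at 77.4, with 72.1 to 84.1 when 1 mouse was left out, and without length scaling it was the granule cell list at 60.5. Genes apart between the series made up 26.2% at 1.5-fold, 2.37% at 4-fold, 7.78% at a CPM of 10 or more, 11.4% with TMM, and 10.8 to 11.4% with 1 mouse of the first series left out. No paired test was run, as no groups were compared, and ratios between genes were taken within each mouse. Depth limits the first series most, where a gene at the CPM minimum rests on 26 or 27 counts.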

Other observations

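Transcription factors known from Purkinje cells were led by *Foxp4*, a forkhead factor, at 119, 136 and 163 CPM/kb in wild types 1, 2 and 3. *Mef2d*, an activity-dependent factor, stood at 47.8, 47.97 and 42.97, *Etv5*, an ETS factor, at 23.99, 30.7 and 27.3, and *Ebf1*, a factor of early B cells and neurons, at 25.7, 24.4 and 22.4. Of the 26 factors listed 23 were in the baseline. *Ebf2*, known from zebrin-negative stripes, stood at 9.75, 9.18 and 7.78. *Rreb1*, the gene that the series was built around, was in the baseline at a low level of 1.24, 1.19 and 0.978 CPM/kb, and *Rpl22*, whose floxed allele carries the tag, stood at 19.9, 20.4 and 22.7.

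Secreted factors were led by *Kitl*, the ligand of the interneuron receptor *Kit*, at 158, 136 and 77.6 CPM/kb, with the second series lowest. *Wnt3*, a Wnt ligand, stood at 27.8, 37.2 and 27.8 and *Shh*, the mitogen of granule cell precursors, at 16.3, 15.1 and 15.4. Of 18 listed ligands 12 were in the baseline. Among peptide genes *Cck*, the cholecystokinin precursor, stood at 225, 282 and 297, above the granins and processing proteins *Pcsk1n* at 171, 185 and 207, *Scg2* at 113, 167 and 95.1 and *Chgb* at 78.6, 97.96 and 78.4.

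The genes farthest apart between the series above 10 CPM were the processed pseudogenes *Gm7308*, *Gm5559*, *Gm6180*, *Gm7336* and *Gm12428*, lower in the second series by 8.50 to 10.2 on the log2 scale. On the higher side were *Usmg5*, a subunit of the ATP synthase, at 2.01, 1.22 and 121 CPM, and the ribosomal protein genes *Rps29* at 1.51, 1.07 and 79.8, *Rplp2* at 1.97, 1.56 and 79.9, *Rpl12* at 1.82, 1.67 and 62.2 and *Rpl17* at 2.902, 2.66 and 94.7. The tubulin gene *Tubb2b* fell the other way, at 178, 176 and 11.5 CPM, and was named after its values were seen.

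Within the first series 78 baseline genes (0.653%) differed more than 2-fold. The following were chosen after their values were seen. *Gpr37l1*, an orphan receptor of glia, stood at 33.9, 268 and 35.5 CPM, with wild type 2 7.90-fold above wild type 1 and wild type 3 near wild type 1. *Slc37a1*, a sugar phosphate exchanger, stood at 15.9, 1.22 and 30.2 CPM, with wild type 2 the low one. *Tmem204* stood at 14.3, 53.7 and 15.3 and *Plekhg5* at 3.44, 15.6 and 5.49 CPM. The immediate-early genes *Fos* at 7.27, 20.4 and 10.1 and *Ier2* at 8.28, 23.6 and 12.95 CPM were highest in wild type 2.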
